A study of Mus musculus with 12 samples.

Results

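Hemoglobin and red cell genes were examined in mouse tibialis anterior, the fast-twitch muscle along the shin, by RNA sequencing. The 5 genes Hba-a1, Hba-a2, Hbb-bs, Hbb-bt and Alas2 were taken by name from a table of 30239 genes, and each name stood on 1 row. They were chosen by their measured expression, which was lower in DMD-Null than in mdx muscle, so that difference is given below as a description, with no test. The animals were untreated and 6 months old, and the 12 libraries came from 3 genotypes with 4 libraries each. Wild-type (WT) mice have an intact dystrophin gene. The mdx mouse, the usual model of Duchenne muscular dystrophy, carries a nonsense mutation in that gene. The name DMD-Null denotes loss of the gene. The sources used here do not give how that allele was made, the strain background or the sex. The libraries are numbered within each genotype and the series gives 4 per group, but no label ties a library to an animal, so p-values here reflect how far these samples spread, which may be technical.

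Hemoglobin, the oxygen carrier of red cells, is a tetramer of alpha and beta chains, each holding a heme group. Hba-a1 and Hba-a2 encode the adult alpha chain from neighbouring genes, and Hbb-bs and Hbb-bt encode the adult beta chain from the single-type beta-globin cluster of some inbred mouse strains. Alas2 encodes the erythroid form of aminolevulinate synthase, which makes the first committed intermediate of heme. These genes are transcribed in nucleated red cell precursors of the marrow and spleen. Young circulating red cells, the reticulocytes, keep part of the RNA after losing the nucleus, so a tissue that is not flushed of blood holds some globin RNA. In bulk tissue, fewer cells of a type and less RNA per cell cannot be told apart.

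The genes lie at 3 loci. Positions are those of the deposited table, which match the GRCm38 mouse genome. Hba-a1 (ENSMUSG00000069919) lies on the plus strand at chr11:32283511-32284465 and Hba-a2 (ENSMUSG00000069917) on the same strand at chr11:32296489-32297298. On the minus strand of chromosome 7 lie Hbb-bs (ENSMUSG00000052305, chr7:103826534-103827928) and Hbb-bt (ENSMUSG00000073940, chr7:103812524-103813996). Alas2 (ENSMUSG00000025270) lies on the plus strand at chrX:150547375-150570638. The annotation gives 3 exons to each globin gene and 11 to Alas2.

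The members of each globin pair are close to identical, which bears on how far their counts can be told apart. In the GENCODE vM21 transcripts, the coding sequences of Hba-a1 and Hba-a2 are 429 bases long and differ at 1 base. Those of Hbb-bs and Hbb-bt are 444 bases long and also differ at 1 base. The stretches around these differences, bases 351 to 410 of the alpha and 385 to 444 of the beta coding sequence, are printed with the differing base in capitals.
Hba-a1: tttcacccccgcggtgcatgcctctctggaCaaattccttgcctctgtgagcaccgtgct
Hba-a2: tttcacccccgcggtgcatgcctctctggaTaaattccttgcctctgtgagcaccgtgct
Hbb-bs: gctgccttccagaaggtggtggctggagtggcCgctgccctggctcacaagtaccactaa
Hbb-bt: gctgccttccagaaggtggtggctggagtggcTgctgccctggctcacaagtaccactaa
Of all 50-base windows of the first coding sequence, 87.1% occur unchanged in the other alpha gene and 92.9% in the other beta gene. Alpha and beta shared no such window, with 57.8% identity between Hba-a1 and Hbb-bs. Within the coding sequence few reads can therefore assign a count to 1 gene of a pair, and the sources used here do not give how shared reads were counted. If shared reads were split between the genes of a pair, its sum does not depend on that split. Whether they were instead dropped or counted in both genes is not given, and that would change the sum.

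The 250 bases before the RefSeq transcription start are shown for 4 of the 5 genes (RefSeq, GRCm38.p6). Capitals mark GATAA (read by GATA factors), CACCC (read by Klf1 and other Krüppel-like factors), CCAAT and TATAA, each searched on both strands, with neighbouring matches run together.
Hba-a2, chr11:32296242-32296491, plus strand: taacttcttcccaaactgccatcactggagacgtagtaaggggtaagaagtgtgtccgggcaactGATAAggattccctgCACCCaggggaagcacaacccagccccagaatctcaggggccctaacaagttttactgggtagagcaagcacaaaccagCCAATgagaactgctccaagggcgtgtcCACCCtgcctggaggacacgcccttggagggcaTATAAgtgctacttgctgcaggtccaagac
Hbb-bs, chr7:103827929-103828178, minus strand: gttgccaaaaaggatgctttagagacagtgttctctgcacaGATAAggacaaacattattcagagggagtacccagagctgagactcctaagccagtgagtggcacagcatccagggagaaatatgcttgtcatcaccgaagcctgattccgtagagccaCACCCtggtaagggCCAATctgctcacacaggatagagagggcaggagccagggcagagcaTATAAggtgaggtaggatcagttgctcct
Hbb-bt, chr7:103813924-103814173, minus strand: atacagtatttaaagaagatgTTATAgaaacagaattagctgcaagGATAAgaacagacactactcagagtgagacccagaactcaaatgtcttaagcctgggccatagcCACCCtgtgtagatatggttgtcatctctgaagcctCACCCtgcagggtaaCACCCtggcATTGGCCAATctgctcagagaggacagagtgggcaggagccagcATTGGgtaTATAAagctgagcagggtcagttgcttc
Alas2, chrX:150547167-150547416, plus strand: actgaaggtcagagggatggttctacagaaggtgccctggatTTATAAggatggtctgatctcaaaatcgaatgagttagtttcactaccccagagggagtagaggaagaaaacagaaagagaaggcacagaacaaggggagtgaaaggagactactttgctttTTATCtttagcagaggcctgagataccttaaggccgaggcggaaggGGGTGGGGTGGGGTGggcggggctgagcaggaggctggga
Hba-a1 is left out because its reference promoter sequence, shifted by 3 bases, matched that of Hba-a2 at all 297 bases compared. The sequences compared run past the printed window. GATAA was found in all 5 windows, against 22.6% of the 32851 promoters in the same table, CACCC in all 5 against 52%, and TATAA in all 5 against 22.8%. CCAAT was found in the 4 globin windows and not in that of Alas2, against 33.8% of all promoters. In the globin windows a TATAA began 27 to 30 bases before the start, while in Alas2 its overlapping matches began 208 and 207 bases before it. These are letter matches in a window, not binding sites.

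All 12 libraries were deep, with 60693078 to 68054627 counts. Dmd, the targeted gene, had 71 to 164 counts in the DMD-Null libraries, 713 to 1254 in the mdx libraries and 412 to 3597 in the WT libraries, so all 4 DMD-Null libraries lay below the other 8. Within WT, Dmd stood at 3597 counts in WT 2 and 2446 in WT 4. It stood at 542 in WT 1 and 412 in WT 3, fewer than in any mdx library. Dmd counts therefore set DMD-Null apart, but they did not separate WT from mdx. WT 1 and WT 3 also stood apart from the rest by other measures. Spearman's rho across genes between GC content and the log2 ratio of a library to the overall mean was 0.655 and 0.604 in them, against -0.579 to 0.449 in the other 10. Their scaling factors by the trimmed mean of M values (TMM) were 0.697 and 0.701, against 0.952 to 1.18 elsewhere. The GC content of the 5 genes was 50.8% to 57.2%. In edgeR's quasi-likelihood test, 4001 of 11376 tested genes passed an adjusted p of 0.05 between mdx and WT and 3241 between DMD-Null and WT, but 2 between DMD-Null and mdx.

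Together the 4 globin genes took a small share of the reads. The share was 0.0683%, 0.0581%, 0.0768% and 0.0640% of all counts in WT 1 to 4. In mdx 1 to 4 it was 0.134%, 0.0491%, 0.0520% and 0.0322%, and in DMD-Null 1 to 4 it was 0.0334%, 0.0192%, 0.0283% and 0.0303%. DMD-Null thus lay below WT throughout, whereas mdx spanned from the DMD-Null range to well above WT, with mdx 1 alone at the top. Counting error was small beside these gaps, the 95% Wilson interval running from 0.133% to 0.134% in mdx 1 and from 0.0188% to 0.0195% in DMD-Null 2, and it covers counting error only. The mean share (SD, n = 4) was 0.0668% ± 0.00789 in WT and 0.0667% ± 0.0454 in mdx, and DMD-Null had 0.0278% ± 0.00614.

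Hba-a1 stood highest by the mean of each genotype. These levels are in FPKM, fragments scaled to gene length and library size. For Hba-a1, WT 1 to 4 stood at 303, 201, 333 and 220.5 FPKM, mdx 1 to 4 at 525, 204, 199 and 134, and DMD-Null 1 to 4 at 124, 72.9, 104 and 116. Every DMD-Null library lay below every library of WT and of mdx, though mdx 4 at 134 was close to DMD-Null 1 at 124. For Hba-a2 the WT libraries stood at 266, 183, 291 and 198 FPKM, the mdx libraries at 462, 182, 177 and 81.8, and the DMD-Null libraries at 108, 59.1, 91.3 and 102. Here mdx 4 fell inside the DMD-Null range, and WT and DMD-Null did not overlap.

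The beta genes varied in the same way. For Hbb-bs the levels were 150.4, 192, 175 and 218 FPKM (WT 1 to 4), 421, 133, 164 and 112 (mdx 1 to 4), and 110.2, 64.7, 93.7 and 98.4 (DMD-Null 1 to 4). The DMD-Null libraries lay below all others, although mdx 4 at 112 was just above DMD-Null 1 at 110.2. For Hbb-bt they were 84.5, 117, 106 and 129 FPKM (WT), 229.9, 77.3, 93.1 and 61.4 (mdx), and 63.8, 34.8, 53.0 and 54.3 (DMD-Null). WT and DMD-Null again did not overlap, and mdx 4 lay within the DMD-Null range. WT 1 and WT 3 were the highest WT libraries for both alpha genes and the lowest for both beta genes.

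Alas2 was expressed far lower, at 2.50, 3.06, 2.31 and 3.52 FPKM (WT 1 to 4), 5.91, 1.46, 2.17 and 0.996 (mdx 1 to 4), and 1.66, 0.739, 1.37 and 1.21 (DMD-Null 1 to 4). Its counts ranged from 120 in DMD-Null 2 to 1060 in mdx 1, the same 2 libraries that were lowest and highest for the globins. WT and DMD-Null did not overlap, while mdx 2 and mdx 4 fell inside the DMD-Null range.

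**Figure D1:**
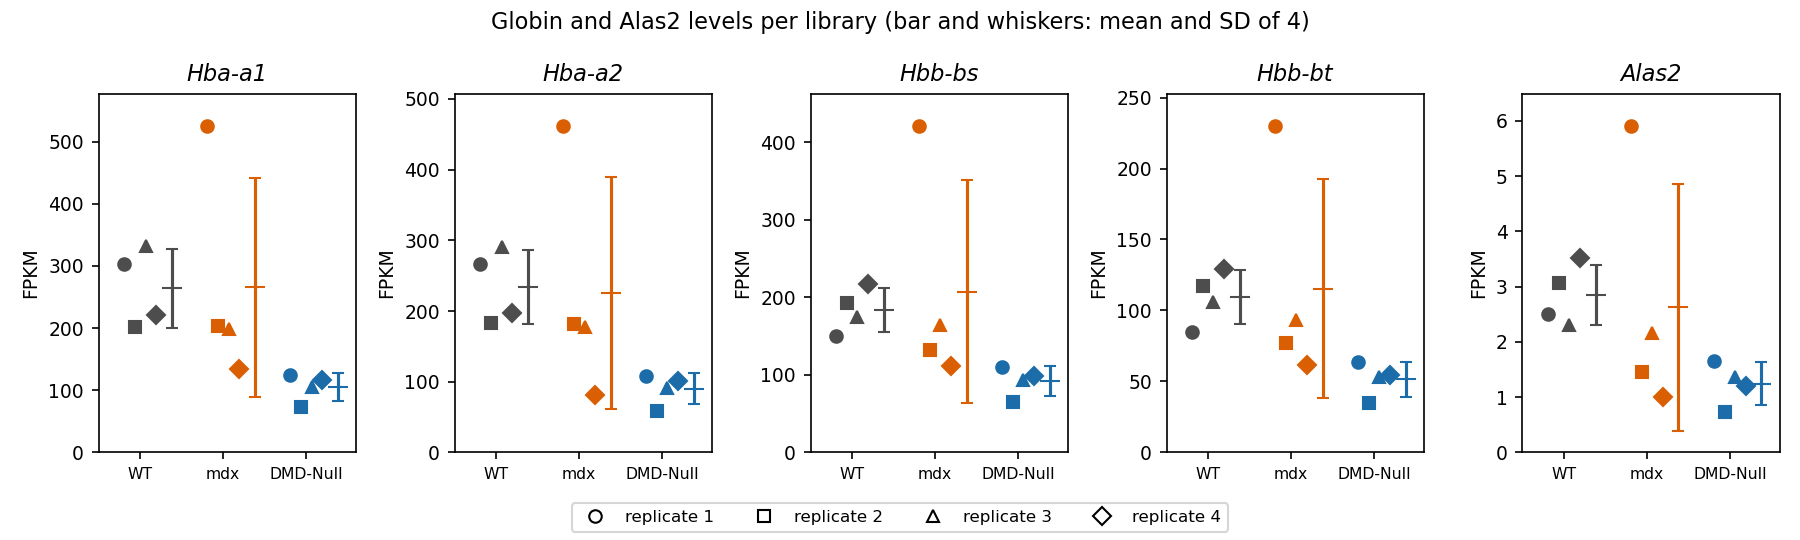
FPKM of each of the 5 genes (1 panel per gene, axis from 0) in the 12 libraries by genotype, with marker shapes for the replicate number and the mean and SD of 4 libraries beside the points. The DMD-Null points lie below all WT points in each panel, and mdx 1 lies far above the other mdx libraries.

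By mean FPKM the order in WT was Hba-a1 (264 ± 63.5), Hba-a2 (234 ± 52.2), Hbb-bs (184 ± 28.4), Hbb-bt (109 ± 19.0) and Alas2 (2.85 ± 0.550; SD, n = 4). In mdx the same order held at 265 ± 176, 225 ± 164, 207 ± 144, 115 ± 77.4 and 2.63 ± 2.24. In DMD-Null the means were 104 ± 22.5 for Hba-a1, 90.0 ± 21.7 for Hba-a2, 91.7 ± 19.3 for Hbb-bs, 51.5 ± 12.1 for Hbb-bt and 1.24 ± 0.385 for Alas2. Neighbours among the first 3 genes lay within 1 SD of each other in every genotype except Hba-a2 and Hbb-bs in WT, whose gap of means exceeded the SD of Hbb-bs, and Hbb-bt and Alas2 stood clear of them in WT and DMD-Null. The highest mdx library exceeded the lowest 3.75 to 5.93 times over the 5 genes, against 1.45 to 1.66 times in WT and 1.70 to 2.24 times in DMD-Null.

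Between DMD-Null and WT all 5 genes fell, against a background of 28.5% of the 11376 tested genes called in either direction and 15.6% called lower. This comparison did not choose the genes, but it uses the same DMD-Null libraries as the one that did, so a fall is partly fixed by the choice. Hba-a1 fell by 1.87 on the log2 scale (SE 0.43, edgeR adjusted p = 0.00919) and Hba-a2 by 1.91 (SE 0.47, edgeR adjusted p = 0.0130). Hbb-bs fell by 1.46 (SE 0.37, edgeR adjusted p = 0.0147), Hbb-bt by 1.54 (SE 0.37, edgeR adjusted p = 0.0115) and Alas2 by 1.64 (SE 0.47, edgeR adjusted p = 0.0249). The median change was -1.64 over the 5 genes and 0.014 over all tested genes. In FPKM, which carries no TMM scaling, the ratio of WT to DMD-Null means was 2.53 for Hba-a1, 2.61 for Hba-a2, 2.0 for Hbb-bs, 2.12 for Hbb-bt and 2.29 for Alas2. All 4 DMD-Null libraries lay below all 4 WT libraries for each of the 5 genes, as for 3.67% of tested genes.

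The calls depended in part on WT 1 and WT 3, and leaving these out also leaves fewer WT libraries. Without WT 1 and WT 3, Hbb-bs (edgeR adjusted p = 0.0389) and Hbb-bt (edgeR adjusted p = 0.0279) still fell. There 21.9% of tested genes were called in either direction and 9.87% lower. Hba-a1 was at -1.28 (edgeR adjusted p = 0.0565), Hba-a2 at -1.35 (edgeR adjusted p = 0.0773) and Alas2 at -1.67 (edgeR adjusted p = 0.0565). With all libraries these 3 genes were at -1.87, -1.91 and -1.64, so only the alpha genes fell less, while Alas2 lost its call without a smaller change. With library totals alone in place of TMM, the median of all genes moved to 0.43 and that of the 5 genes to -1.23. Alas2 no longer passed (edgeR adjusted p = 0.0626), while 3888 of 11376 tested genes were called in either direction. Alas2 also missed the threshold without DMD-Null 2 (edgeR adjusted p = 0.0751) or DMD-Null 3 (edgeR adjusted p = 0.0635). Over all alternatives the adjusted p of the 5 genes ranged from 6.72e-05 to 0.0773. With offsets that correct each library for GC content, a setting added after the data were seen, all 5 fell, by 1.46 to 1.58. More genes were called in that setting, 4377 of 11368 in either direction.

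Between mdx and WT, none of the 5 genes passed the threshold, with 35.2% of tested genes called in either direction and 20.1% called lower. This comparison shares the mdx libraries with the choice of the genes and the WT libraries with the comparison of DMD-Null. Choosing genes with DMD-Null below mdx favours high mdx values, so the lack of a called fall is partly fixed by the choice. The log2 difference was -0.53 for Hba-a1 (SE 0.42, edgeR adjusted p = 0.310) and -0.59 for Hba-a2 (SE 0.46, edgeR adjusted p = 0.306). It was -0.29 for Hbb-bs (SE 0.36, edgeR adjusted p = 0.521), -0.38 for Hbb-bt (SE 0.36, edgeR adjusted p = 0.398) and -0.57 for Alas2 (SE 0.46, edgeR adjusted p = 0.324). At an unadjusted p of 0.05 none passed either, the smallest being 0.223 for Hba-a2. The 4 mdx libraries were not all below WT for any of the 5 genes, as they were for 4.84% of tested genes.

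This result rested on mdx 1, whose FPKM was 2.93 to 3.84 times the mean of the other 3 mdx libraries over the 5 genes. Without mdx 1 all 5 genes fell in mdx against WT, with 20.7% of tested genes called in either direction and 10.7% called lower. Since mdx 1 was the highest mdx library for each of the 5 genes, leaving it out partly fixes such a fall. The falls were 1.11 for Hba-a1 (edgeR adjusted p = 0.0420), 1.21 for Hba-a2 (edgeR adjusted p = 0.0468), 0.91 for Hbb-bs (edgeR adjusted p = 0.0176), 0.97 for Hbb-bt (edgeR adjusted p = 0.0178) and 1.35 for Alas2 (edgeR adjusted p = 0.0163). Over all alternatives the adjusted p ranged from 0.0163 to 0.995. The direction was not stable either, since Hbb-bs and Hbb-bt were at 0.13 and 0.038 with library totals alone, and Hba-a1 was at 0.062 without WT 1 and WT 3, where none of the 5 genes and 23.3% of tested genes passed.

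**Figure D2:**
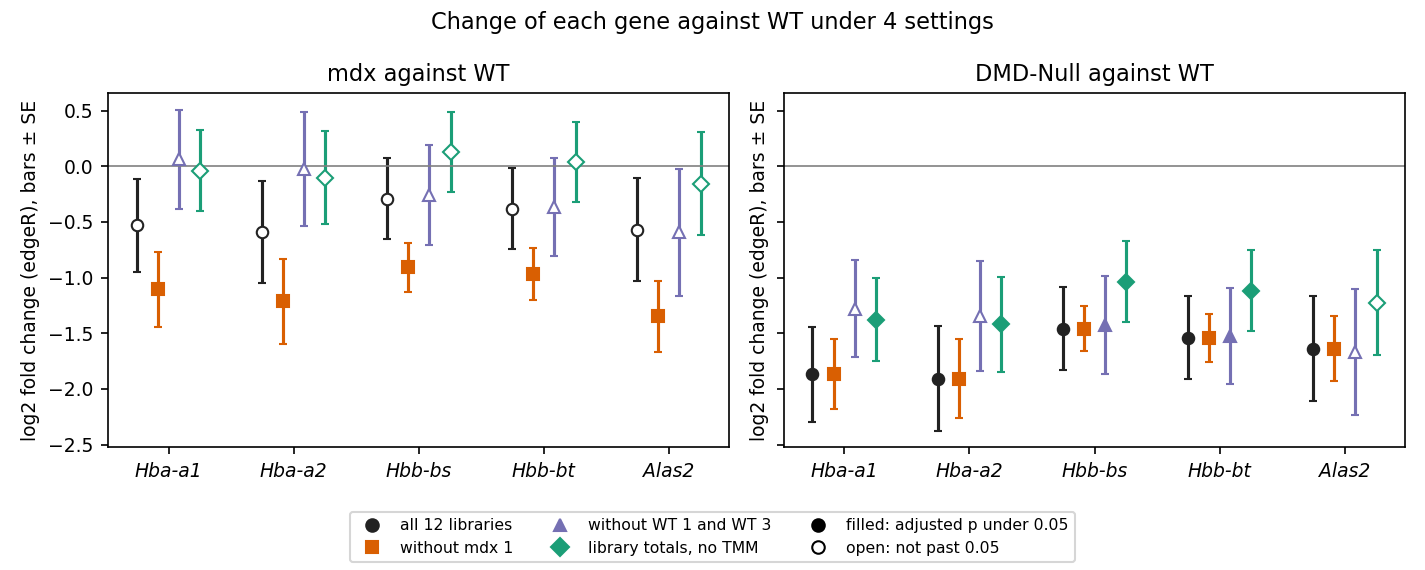
Log2 fold change against WT from edgeR (bars ± SE) for each gene under 4 settings, mdx at left and DMD-Null at right, with filled symbols for an adjusted p under 0.05. In mdx the filled symbols are those without mdx 1, from -0.91 to -1.35. In DMD-Null every symbol lies below 0, with 3 of 5 open without WT 1 and WT 3 and Alas2 open with library totals alone.

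The difference that chose the genes, DMD-Null against mdx, was a log2 change of -1.34 for Hba-a1, -1.32 for Hba-a2, -1.17 for Hbb-bs, -1.16 for Hbb-bt and -1.07 for Alas2. The ratio of mdx to DMD-Null mean FPKM was 2.54, 2.51, 2.26, 2.24 and 2.11 in the same order. Hba-a1 and Hbb-bs had no overlap between these genotypes, and 0.782% of tested genes had all 4 DMD-Null libraries below all 4 mdx libraries. Without mdx 1 the log2 changes were -0.76 for Hba-a1, -0.69 for Hba-a2, -0.55 for Hbb-bs, -0.57 for Hbb-bt and -0.29 for Alas2. The mean of the remaining 3 mdx libraries was then 1.71, 1.63, 1.48, 1.50 and 1.24 times the DMD-Null mean. Over all tested genes, 0.0176% passed in this comparison.

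Ratios of counts within a library do not depend on scaling, and they were not the values that chose the genes. Beta to alpha counts stood at 0.413, 0.805, 0.450 and 0.830 (WT 1 to 4), 0.661, 0.546, 0.685 and 0.789 (mdx 1 to 4), and 0.750, 0.752, 0.750 and 0.701 (DMD-Null 1 to 4). The DMD-Null libraries were close to each other, and the WT libraries split into WT 1 and WT 3 below and WT 2 and WT 4 above, the same pairs that GC content separated. Hbb-bt to Hbb-bs lay between 0.492 and 0.557 in every library. Hba-a2 to Hba-a1 lay between 0.665 and 0.749 in 11 libraries and at 0.501 in mdx 4. Alas2 per 1000 globin counts ranged from 8.31 to 14.9 in WT, while mdx had 7.98 to 11.7 and DMD-Null 10.3 to 13.3.

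Between either mutant and WT, none of these ratios passed the threshold once adjusted over 12 comparisons (4 ratios in 3 pairs of genotypes). Two-sided exact permutation tests of 4 against 4 libraries cannot go below p = 0.0286, so at least 7 of the 12 had to reach that value for any to pass, and the missed threshold shows little about the ratios. That value was reached for Hba-a2 to Hba-a1 between DMD-Null and WT, at a log2 difference of -0.056 (exact permutation p = 0.0286, adjusted p = 0.343). Beta to alpha differed by 0.31 on the log2 scale between DMD-Null and WT (exact permutation p = 0.429, adjusted p = 0.643), a value that turned to -0.15 without WT 1 and WT 3. Alas2 per globin count differed by 0.019 (exact permutation p = 0.943, adjusted p = 1). The other ratios of mdx and DMD-Null against WT had adjusted p-values of 0.343 to 0.838.

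**Figure D3:**
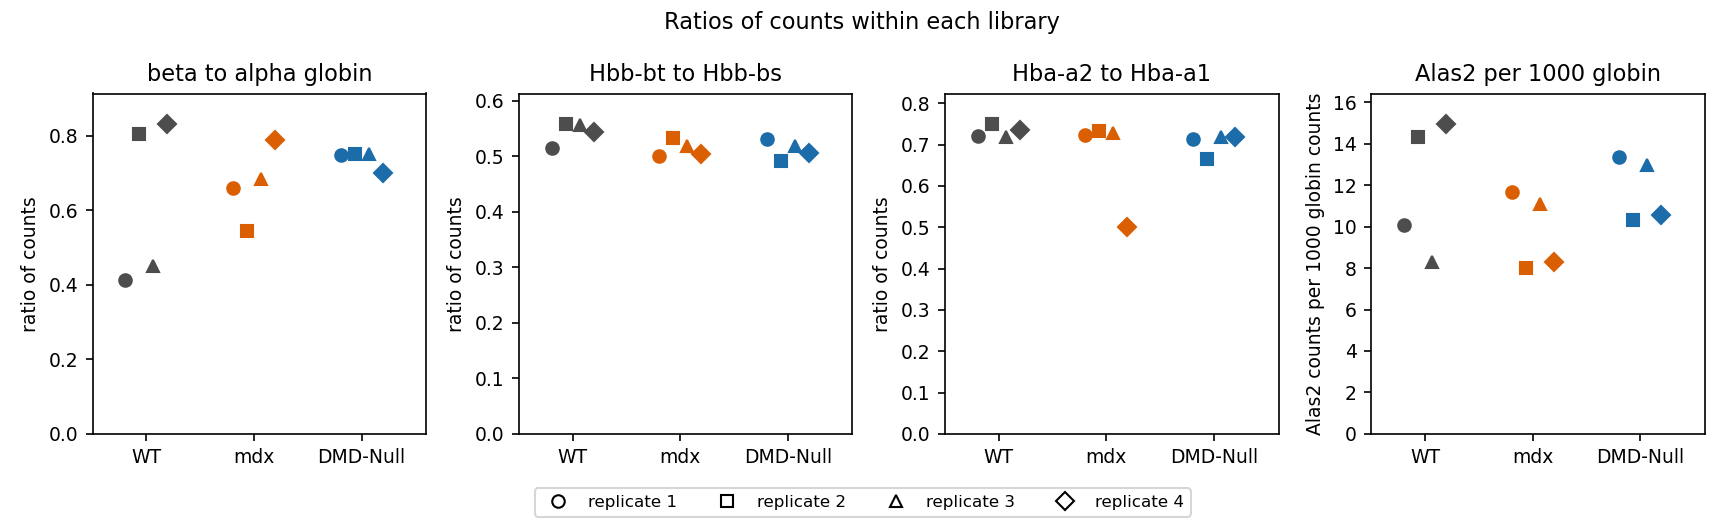
Ratios of counts within each of the 12 libraries (axes from 0): beta to alpha globin, Hbb-bt to Hbb-bs, Hba-a2 to Hba-a1, and Alas2 per 1000 globin counts, with marker shapes for the replicate number. Hbb-bt to Hbb-bs stays between 0.492 and 0.557, and beta to alpha splits WT 1 and WT 3 (0.413 and 0.450) from WT 2 and WT 4 (0.805 and 0.830).

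The label of red cell genes was set against other genes that define the red cell lineage. Of 12 such markers, 11 were used and Ahsp was not analysed here. Ank1, the ankyrin of the red cell skeleton, which muscle also expresses, had 21111 to 31939 counts in every library, and Car1, a carbonic anhydrase of red cells, had 6 to 174. The other 9 markers together had 8 to 77 counts per WT library, 26 to 64 per mdx library and 15 to 78 per DMD-Null library, so the groups overlapped. In CPM these sums were 0.129 to 1.23, 0.405 to 0.978 and 0.237 to 1.21, where 3 counts correspond to 0.0441 to 0.0494 CPM. Single markers were at or near 0. Slc4a1, the band 3 anion exchanger, had 8 to 35 counts in WT, with 0 to 18 for mdx and 0 to 12 for DMD-Null. Rhag, Epb42 and Trim58 were at 0 in 11 of 12 libraries each. The nuclear factors Klf1 and Gata1, which drive globin genes in precursors, had at most 12 and 24 counts, and Gata1 was at 0 in all 4 WT libraries.

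**Figure D4:**
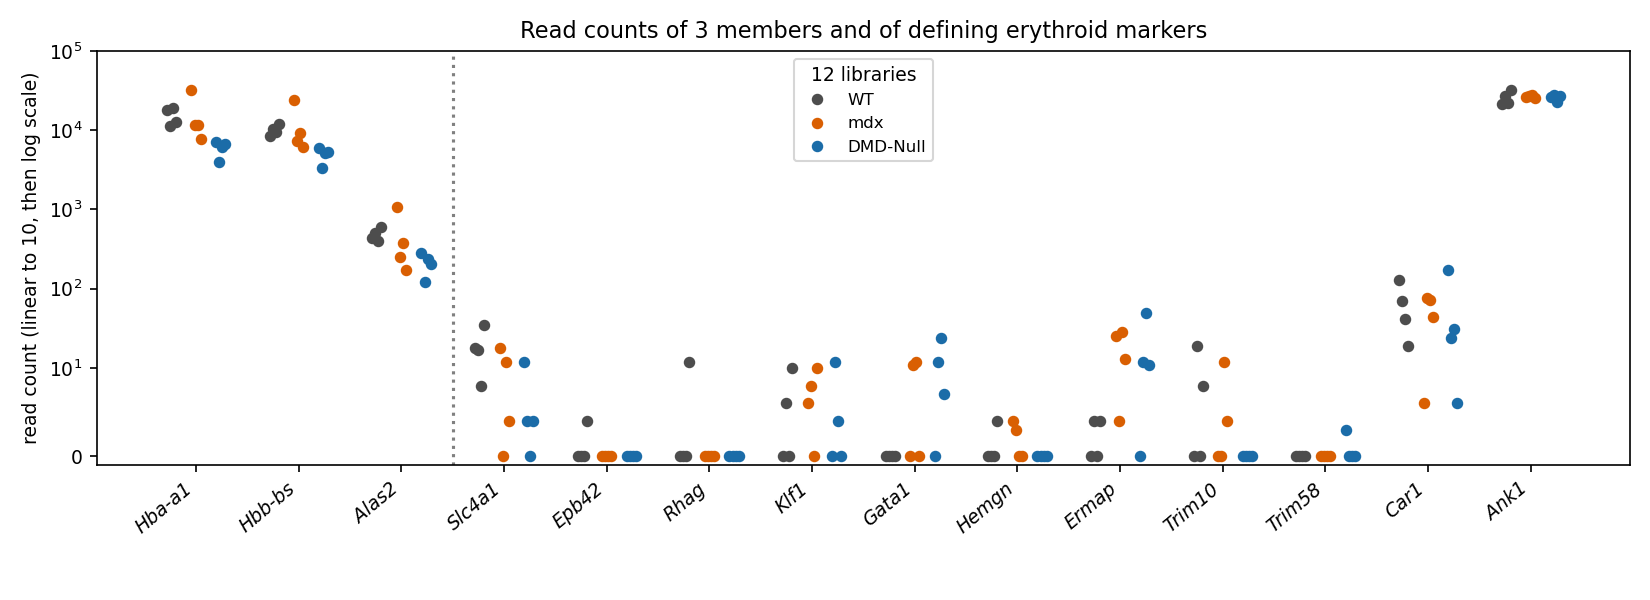
Read counts (linear to 10, then log scale) of Hba-a1, Hbb-bs and Alas2 and, right of the dotted line, of 11 genes that define the red cell lineage, per library and coloured by genotype. Counts of Hba-a1 run from 3985 to 31774, while all markers other than Car1 and Ank1 stay at 50 or fewer.

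Of 12 other globin genes listed, 6 were in the table and 2 were tested. The embryonic Hbb-y and the theta-like Hbq1a and Hbq1b had at most 4, 4 and 7 counts. Myoglobin (Mb), the oxygen store of muscle fibres, was the most abundant globin of the tissue with 2933 ± 1018 FPKM for WT, 1318 ± 175 for mdx and 1247 ± 193 for DMD-Null (SD, n = 4). It fell in mdx by 1.72 on the log2 scale (SE 0.33, edgeR adjusted p = 0.00300) and by 1.79 in DMD-Null (SE 0.33, edgeR adjusted p = 0.00270), and both falls passed without WT 1 and WT 3 (-0.93 and -1.0). Cytoglobin (Cygb) did not pass, at 0.21 in mdx and 0.15 in DMD-Null. It was called higher under other settings, at 0.80 in mdx (edgeR adjusted p = 0.0165) and 0.74 in DMD-Null (edgeR adjusted p = 0.0241) when WT 1 and WT 3 were left out, at 0.70 and 0.66 with library totals alone, and at 0.67 and 0.57 with GC-corrected offsets.

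Genes of heme synthesis and its transport, the pathway that Alas2 opens in red cells, were all tested, 18 of 18. In mdx 7 fell and none rose, with a median of -0.30. In DMD-Null 6 fell and 1 rose, with a median of -0.25. Over all tested genes, 20.1% were called lower and 15% higher in mdx, and 15.6% and 12.9% in DMD-Null. Without WT 1 and WT 3 these shares were 10.9% and 12.4% in mdx, and 9.87% and 12% in DMD-Null. The same shares are the background for the counts of the lists that follow. Alad, which joins aminolevulinate molecules into a pyrrole ring, fell by 2.18 in mdx (edgeR adjusted p = 0.00211) and by 2.19 in DMD-Null (edgeR adjusted p = 0.00227). Slc25a28, a mitochondrial iron importer of many tissues, fell by 1.69 and 1.61. Abcb6, a porphyrin transporter, fell by 1.32 in mdx, and Ppox, the penultimate enzyme, fell by 0.99 in DMD-Null. Alas1, the form of aminolevulinate synthase used outside red cells, fell by 0.66 in each. Slc25a37, the mitochondrial iron importer typical of red cell precursors, was the gene that rose in DMD-Null, by 0.51 (edgeR adjusted p = 0.0321). Without WT 1 and WT 3, 3 of the 18 fell in mdx and 2 in DMD-Null, and Alad and Slc25a28 were the genes named above that still passed. The third in mdx was Abcb10, a mitochondrial transporter, at -0.45. With library totals alone 2 fell and 1 rose in each mutant, and the list medians were 0.13 and 0.20, against 0.42 and 0.43 for all tested genes.

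Among 12 erythroid transcription factors, 6 were tested. Zfpm1, the partner of GATA factors, fell by 1.43 in mdx and 1.42 in DMD-Null, but not without WT 1 and WT 3 (-0.26 in each). Lmo2, a bridging factor that endothelium also uses, rose by 1.0 and 0.69, and Nfe2l2, a factor of the oxidative stress response in many cells, rose by 0.95 and 0.88. Without WT 1 and WT 3, of these 4 rises only that of Lmo2 in mdx passed, and Nfe2l1, a relative of Nfe2l2, fell by 0.33 in each mutant. The median over the 6 was 0.44 in mdx and 0.33 in DMD-Null.

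Of 18 genes of the red cell membrane and skeleton, 8 were tested, with 4 lower and 2 higher in mdx (median -0.33) and 4 lower and 1 higher in DMD-Null (median -0.25). Sptb, a beta spectrin that muscle shares with red cells, fell by 1.04 and 0.88. Aqp1, a water channel of red cells and endothelium, fell by 0.54 and 0.64. Slc2a1, a glucose transporter, rose by 0.48 and 0.53. Ank1 fell by 0.43 and 0.42. Without WT 1 and WT 3, 2 of the 8 fell in each mutant, none rose in mdx and 1 rose in DMD-Null. Ank1 still fell there, while Sptb was at -0.38 in mdx (edgeR adjusted p = 0.243) and -0.21 in DMD-Null (edgeR adjusted p = 0.550), Aqp1 missed the threshold in both mutants and Slc2a1 in mdx. With library totals alone none of the 8 fell and 2 rose in each comparison, and Ank1 was at -0.01 and 0.00. Of 14 tested other red cell genes, 2 rose and 2 fell in mdx, and 1 rose and 2 fell in DMD-Null, with medians of 0.026 and -0.038. The peroxide-removing enzymes moved apart, Cat falling by 0.73 and 0.78 and Gpx1 rising by 0.57 and 0.58. Ube2l6 rose by 0.63 in mdx, and Bpgm, which makes the ligand that lowers the oxygen affinity of hemoglobin, fell by 0.49 in DMD-Null. With library totals alone 4 of the 14 rose and none fell in each mutant, with Cat at -0.36 in mdx (edgeR adjusted p = 0.302) and -0.40 in DMD-Null (edgeR adjusted p = 0.253), and Bpgm at -0.028 in DMD-Null. When WT 1 and WT 3 were left out, the calls for Cat and Gpx1 held, those for Ube2l6 in mdx (edgeR adjusted p = 0.0781) and Bpgm in DMD-Null (edgeR adjusted p = 0.140) were lost, and Blvrb, a biliverdin reductase, was called higher at 0.86 and 0.91.

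All 22 genes for clearance of hemoglobin and handling of iron were tested, with 3 higher and 3 lower in mdx and 2 higher and 4 lower in DMD-Null. The medians were 0.016 and 0.039. Slc11a1, an iron and manganese transporter of phagocytes, rose by 1.83 (edgeR adjusted p = 0.00175) and 1.74 (edgeR adjusted p = 0.00254). Hmox1, which breaks down heme, rose from a WT level of 4.60 ± 2.11 FPKM to 16.0 ± 5.02 for mdx and 15.3 ± 6.47 for DMD-Null (SD, n = 4). The changes were 1.36 and 1.28 on the log2 scale, and its rise in DMD-Null did not pass without WT 1 and WT 3 (edgeR adjusted p = 0.0659). Cd163, the macrophage receptor for hemoglobin bound to haptoglobin, did not pass in mdx (0.62, edgeR adjusted p = 0.127) or DMD-Null (0.74, edgeR adjusted p = 0.0906). Of the plasma carriers, Hpx for heme fell by 2.74 and 2.73, Hp for hemoglobin by 1.77 and 1.59, and Trf for iron by 1.19 and 1.43. Hpx and Hp are made mostly in liver, whose genes are described below. With library totals alone, 6 of the 22 rose in mdx and 8 in DMD-Null, with medians of 0.45 and 0.47 against 0.42 and 0.43 for all tested genes. No gene of the lists described so far passed between DMD-Null and mdx.

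Markers of other blood cells moved in both directions. Pf4, a chemokine stored in platelets, was the 1 tested gene of 13 platelet markers and rose by 1.16 in mdx and 1.49 in DMD-Null. The 13 markers summed to 12.5 to 15.3 CPM (WT), 18.4 to 24.2 (mdx) and 19.2 to 32.3 (DMD-Null), and Pf4 alone had 184 to 354, 721 to 1182 and 643 to 1537 counts. The higher sums came from Pf4. The other 12 markers summed to 9.52 to 10.1 CPM (WT), 6.13 to 8.16 (mdx) and 6.83 to 9.30 (DMD-Null). By this sum every mutant library was under WT, DMD-Null 4 by a narrow margin, but the markers did not all share this. Gp1ba had 312 and 266 counts in WT 1 and WT 3. In WT 2 and WT 4 it had 125 and 150, inside the mutant range of 72 to 154. Itga2b overlapped, with 79 to 166 counts (WT), 124 to 158 (mdx) and 113 to 187 (DMD-Null). Alox12 overlapped too, with 118 to 199, 105 to 166 and 111 to 211. DMD-Null 2, the library with the least globin, had the highest sum with Pf4 but 6.97 CPM without it. Gp6 was near the floor, with 8 counts in each of WT 1 and WT 3 and 0 in WT 2, WT 4 and all mdx and DMD-Null libraries. Of 13 neutrophil markers 4 were tested, and 2 rose in each mutant: Csf3r by 1.55 in both, Retnlg by 2.90 in mdx and Lcn2 by 1.80 in DMD-Null. Retnlg in mdx was at 1.96 (edgeR adjusted p = 0.103) without WT 1 and WT 3, while the calls for Csf3r and Lcn2 held. Ighm, the 1 tested gene of 10 B cell markers, fell by 1.46 in DMD-Null (edgeR adjusted p = 0.00732) and was at -0.86 in mdx (edgeR adjusted p = 0.0524). No T cell marker passed the filter, and their sums were 1.90 to 4.09 CPM (WT), 5.03 to 8.70 (mdx) and 4.81 to 5.72 (DMD-Null). Endothelial markers, as a measure of vessels, summed to 661 to 914 CPM (WT), 645 to 742 (mdx) and 699 to 761 (DMD-Null), so the ranges overlapped. Of these 15 genes 7 fell in mdx and 6 in DMD-Null, against 20.1% and 15.6% of all tested genes. Vwf was at -1.73 and -1.50, Egfl7 at -1.67 and -1.66, and Eng at -1.34 and -1.12. Without WT 1 and WT 3, 1 and 2 of the 15 fell, against 10.9% and 9.87% of all tested genes.

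Genes of other organs differed between the groups too. The 15 liver genes summed to 760 to 844 CPM across WT, to 120, 155, 219.7 and 200.1 across mdx 1 to 4, and to 277, 55.5, 205 and 202 across DMD-Null 1 to 4. WT thus stood above both mutants, as with the globins in DMD-Null, but mdx 1, the highest library for globins, was the lowest mdx library here. DMD-Null 2 was the lowest of all 12 for both. Its counts were 0 for Apoa1, Apoc3, Fga, Fgb, Mup3, Mup7 and Mup20, and 8 for Alb. Ttr went against the rest of the list, with 3305 of the 3370 liver counts of DMD-Null 2. That level lay within the range of Ttr in mdx, 2635 to 4959 counts. In each mutant 13 of 15 liver genes fell, with medians of -3.11 and -2.97, led by Mup3, Mup7 and Mup20 at -4.08 to -4.43 (mdx) and -3.21 to -3.64 (DMD-Null). Without WT 1 and WT 3, 8 of the 15 fell in mdx and 3 in DMD-Null, with medians of -2.82 and -2.47. Of all tested genes 10.9% and 9.87% were called lower there, and 20.1% and 15.6% with all libraries. The 10 lung genes summed to 0.294 to 1.16 CPM (WT), 14.4 to 18.0 (mdx) and 0.664 to 1.44 (DMD-Null), and 6 of them were at 0 in all DMD-Null libraries. The part of liver or lung RNA in the globin values was not tested.

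**Figure D5:**
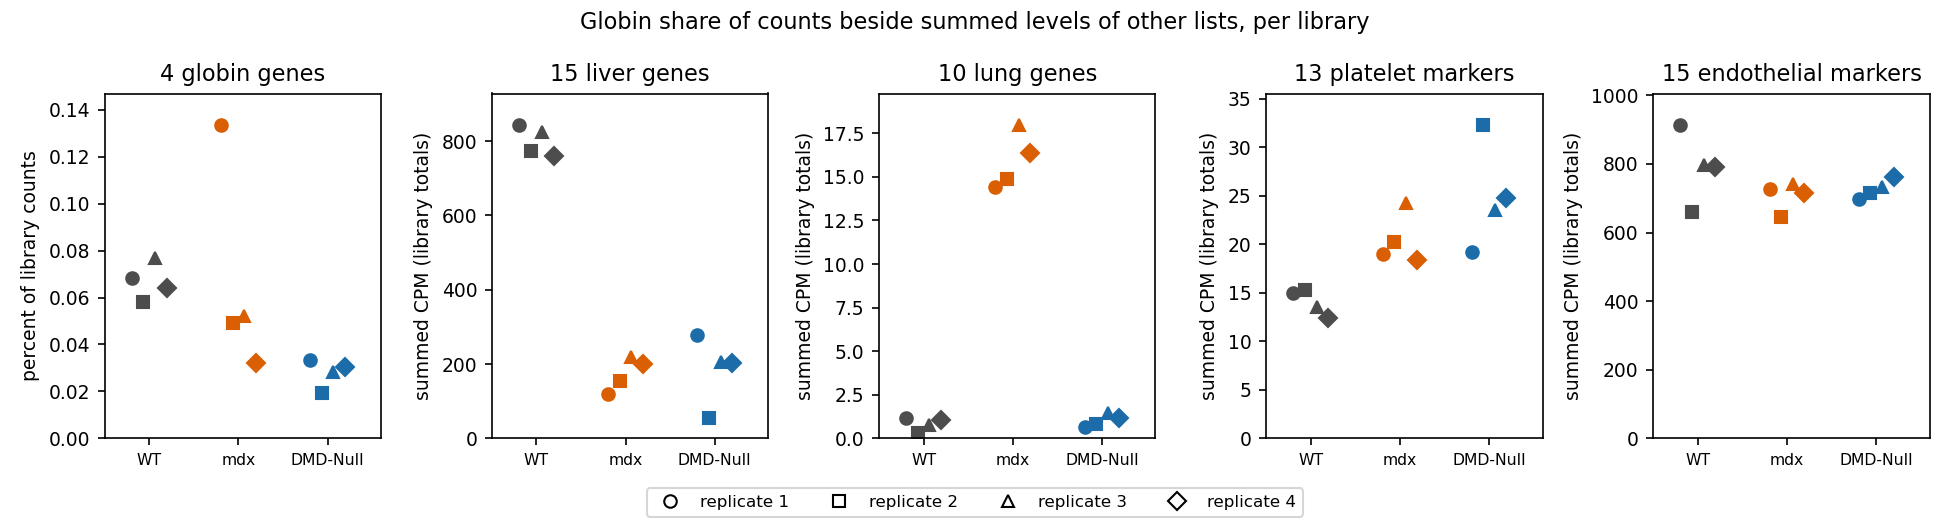
Share of counts in the 4 globin genes beside the summed CPM of 15 liver genes, 10 lung genes, 13 platelet markers and 15 endothelial markers, per library (axes from 0), with marker shapes for the replicate number. DMD-Null 2 is lowest for globin (0.0192%) and liver (55.5 CPM, nearly all of it Ttr). It is highest for the platelet sum (32.3 CPM), most of which is Pf4, and mdx 1 stands out in the globin panel alone.

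After centring log2 CPM over the 12 libraries, each gene differed from the mean of the 5 by 0.139 to 0.215 (root mean square, log2), although each gene is part of that mean. The nearest other genes were Plet1os at 0.529, Cyp2f2 at 0.545, Slco3a1 at 0.549, Ptgis at 0.564 and Padi2 at 0.567, and the median of all other tested genes was 0.945. The SD of log2 CPM over the 12 libraries was 0.784 to 0.998 for the 5 genes against a median of 0.407. Plet1os had 216 counts in mdx 1 against 165 to 186 in the other mdx libraries, a narrower gap than that of the hemoglobin genes. All 5 of these neighbours fell in both mutants, where 20.1% (mdx) and 15.6% (DMD-Null) of tested genes were called lower. They were chosen for their likeness to the hemoglobin genes over these same libraries, so such falls are partly fixed by that choice. For Plet1os the change was -0.69 in mdx and -1.24 in DMD-Null, and for Slco3a1 it was -1.16 and -1.51.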

How the data were processed

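Per the labels, RNA with an integrity number above 7 was isolated from tibialis anterior with an Agilent kit, and poly(A) RNA went into TruSeq stranded libraries. The submitters' processing notes name cutadapt 1.10, FastQC 0.10.1, HISAT2 2.0, StringTie 1.3.4 and the build GRCm39. Of 30155 genes shared with GENCODE vM21, 99.7% had the same start or end as on GRCm38, so coordinates are read as GRCm38. The authors deposited raw whole-number counts for each gene. The same table holds FPKM, which the authors deposited as values relative to the length of a gene and the size of its library. The sources used here do not give how counts were derived or whether strand was used, so counts of near-identical globin genes are uncertain.

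Genes with FPKM of at least 1 in at least 4 libraries were tested, which kept 11376 of 30239, all 5 members included. edgeR 4.0.16 (quasi-likelihood test, TMM factors, R 4.3.3) was fitted to the counts of all 12 libraries. P-values were adjusted by Benjamini-Hochberg over all tested genes at a threshold of 0.05. The SE is the absolute log2 fold change over the square root of F. CPM (counts scaled to a common library size) summed over lists use library totals, and log2 CPM a prior count of 2. Ratios were tested with scipy 1.17.1. Alternatives used DESeq2 1.42.0 and limma 3.58.1. The procedures were tested on simulated data. Coding sequences were aligned with Biopython 1.88.

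The members, gene lists, tests and alternatives were chosen with earlier results of these data known. Named from each list, per comparison against WT, were up to 3 genes past the threshold with the largest change. Alas1, Slc25a37, Cygb, Hmox1, Cd163, Trf and Ttr, and liver genes at 0, were named after their values were seen. Some listed genes are not reported here.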

Additional observations from a re-analysis of the deposited data

Results flagged for a closer look

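In 27 groups of 4 libraries, a highest or lowest value was flagged where its gap to the nearest of the others exceeded Dixon's 95% critical share of the range. Chance flags about 1 in 20 such groups, and 4 were flagged. Hbb-bs in mdx 1 stood at 420.9 FPKM, against 112 to 164 in the other mdx libraries. The other 4 genes were also highest in mdx 1, below that limit. The beta to alpha ratio of DMD-Null 4 was 0.701, against 0.750 to 0.752 in the other DMD-Null libraries. DMD-Null 4 is also the DMD-Null library with a GC correlation of 0.449. The ratio of Hba-a2 to Hba-a1 was 0.501 in mdx 4, against 0.722 to 0.733 in the other mdx libraries, while DMD-Null 2 had 0.665 and the rest of its group 0.713 to 0.718. Counts within this pair are uncertain because the coding sequences differ at 1 base.

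The effects of both mutants against WT differed for 2 lung genes. For Sftpc, a surfactant protein, the effect in DMD-Null minus that in mdx was -11.05 on the log2 scale (edgeR adjusted p = 0.00240). Sftpc had 258 to 348 counts in mdx, 0 to 9 in WT and 0 in every DMD-Null library, so the fitted value is no bound, and with 3 counts over the DMD-Null group as the floor mdx was at least 381-fold higher. For Scgb1a1, a secretoglobin of the airway, the difference was -7.46 (edgeR adjusted p = 0.0129), with 289 to 471 counts in mdx and 0 to 13 elsewhere.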

How the results depend on the processing

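The number of genes called between mdx and WT was 4001, and 1701 with a mean FPKM of at least 5, 2268 with only the 8 libraries compared, 2649 without WT 1 and WT 3, and 2300 to 6874 with each library left out in turn. Between DMD-Null and WT it was 3241, and in the same order 1483, 1398 and, with each library left out, 1707 to 6404, with 5527 by limma on log2(FPKM + 1) and 5430 with a pseudocount of 0.1. Between DMD-Null and mdx it was 2, and 1 with a mean FPKM of at least 5, 4 with only 8 libraries, 6 by DESeq2, 1 without WT 1, WT 3 and DMD-Null 4, and 1 to 2 with each library left out. At an unadjusted p of 0.05, 120 genes passed there.

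Replicate numbers did not pair the libraries: correlations of same-numbered deviations were -0.587 to 0.217, and 1 of 12 libraries matched its own number best. A replicate block gave 2377, 1869 and 0 calls in the 3 comparisons, and 0 and 5 of the 5 members called against WT, as without it.

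Members called in mdx against WT numbered 0 to 5 with each library left out, 5 only without mdx 1. In DMD-Null against WT they numbered 4 to 5, and 2 without WT 1 and WT 3, or without DMD-Null 4 as well. Signs turned in mdx against WT for Hba-a1 without WT 1 and WT 3 (0.062) or DMD-Null 4 as well (0.083), and for Hbb-bs (0.13) and Hbb-bt (0.038) with library totals. Of log2 ratios, without WT 1 and WT 3 beta to alpha turned to -0.30 in mdx and -0.15 in DMD-Null, and Alas2 per globin to -0.32 in DMD-Null, all against WT. With each library left out, beta to alpha in mdx against WT was -0.013 to 0.32, Alas2 per globin in DMD-Null against WT -0.14 to 0.14, Hba-a2 to Hba-a1 in DMD-Null against mdx -0.049 to 0.13, and Hbb-bt to Hbb-bs there -0.025 to 0.011. The causes were not tested.

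Depth did not limit the globins, at 1645 counts or more, but it limits the erythroid markers, where 3 counts are 0.0441 to 0.0494 CPM.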

Other observations

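Muscle fibre genes were lower in both mutants in the comparison with WT. Of 12 such genes, all tested, 7 fell in mdx and 7 in DMD-Null, with medians of -0.97 and -0.95. The share of all tested genes called lower was 20.1% in mdx and 15.6% in DMD-Null. Myh1, a fast myosin heavy chain, fell by 1.63 in mdx and 1.56 in DMD-Null. Myh4, the fastest of the limb myosins, fell by 1.28 and 1.37, and Ckm, the muscle creatine kinase, by 1.25 and 1.26. Without WT 1 and WT 3 none of the 12 passed in edgeR's test, with medians of -0.29 and -0.31. The summed level of the list ranged from 131257 to 302540 CPM across WT, while mdx had 139253 to 177004 and DMD-Null 140037 to 194060, so that WT spanned both mutants.

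Of 6 neighbours of the alpha-globin genes on chromosome 11, 5 were tested. Sh3pxd2b, a scaffold protein of podosomes, rose by 1.63 in mdx (edgeR adjusted p = 0.00103) and by 1.49 in DMD-Null (edgeR adjusted p = 0.00190), with 235 to 434 counts (WT), 1017 to 1676 (mdx) and 1031 to 1288 (DMD-Null). The other 4, Nprl3, Mpg, Rhbdf1 and Snrnp25, did not pass in either mutant, and the median over the 5 was -0.50 and -0.40. Without WT 1 and WT 3 the medians turned to 0.21 and 0.31, and Mpg, a DNA repair glycosylase, was called higher at 0.69 and 0.63. With library totals alone Mpg was called higher in mdx, and with GC-corrected offsets Nprl3 was called lower in both, at -0.38 and -0.42. Nprl3, whose introns hold the enhancers of the alpha-globin genes, had 1155 to 1513 counts (WT), 1210 to 1608 (mdx) and 1079 to 1521 (DMD-Null), ranges that overlapped.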
